A study of Mus musculus with 12 samples.

Results

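The transcripts described here encode the protein machinery that a cereblon-based degrader acts through. The members were chosen by gene symbol, and they are 10 of the 27179 gene IDs in the count table. They are Crbn, Ddb1, Cul4a, Cul4b and Rbx1, which encode the cereblon ubiquitin ligase, Fkbp1a, which encodes FKBP12, and Gspt1, Zfp91, Csnk1a1 and Glul, which encode known cereblon substrates. All 10 passed the filter on low counts. The cells were MC38-idAdpgkG, a single engineered derivative of a mouse (C57BL/6) colon carcinoma line that carries a stably transfected, doxycycline-inducible and degradable mutant Adpgk fused to turboGFP. All 4 groups received 20 ng/mL mouse interferon-gamma. The control group had no other agent over its 51 h, and doxycycline at 1 µg/mL was present throughout the 51 h of the doxycycline group. The dTAG-13 group received 1 µM dTAG-13 for 3 h after 48 h with interferon-gamma. The doxycycline plus dTAG-13 group had the same 3 h of dTAG-13 after 48 h with interferon-gamma and doxycycline.

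As background, cereblon (Crbn) is the substrate receptor of a cullin-RING ligase. A cullin, Cul4a or Cul4b, forms the scaffold, Ddb1 is the adaptor that holds the receptor, and Rbx1 is the RING subunit that brings in the ubiquitin-loaded E2 enzyme. Thalidomide-type ligands bind cereblon and can redirect it to proteins it does not otherwise ubiquitinate, such as the translation termination factor GSPT1 (eRF3a), the zinc-finger protein ZFP91 and the kinase CK1-alpha (Csnk1a1). Mouse cereblon supports the degradation of such recruited proteins poorly compared with the human protein. Glutamine synthetase (Glul) is a substrate that cereblon recognises without a drug. The molecule dTAG-13 carries such a cereblon ligand on one end and, on the other, a ligand for a mutated FKBP12 tag, so that a tagged fusion protein is ubiquitinated and degraded by the proteasome. All values below are mRNA levels, and no protein was measured.

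RNA from each group was sequenced as 3 technical libraries of 1 culture, with between 22165538 and 32809573 counted reads per library. P-values therefore measure only the spread between libraries of a single culture, and differences between cultures and between treatments cannot be told apart. In these bulk samples, fewer cells with a transcript and less RNA per cell cannot be told apart. Adpgk, the gene carried by the transgene, lay between 157.6 and 162.0 CPM (the reads of a gene scaled to the size of its library) in control, 1316 and 1355 with doxycycline, 176.7 and 184.9 with dTAG-13, and 1351 and 1379 with both agents. Of 8 colon epithelial markers, none reached 1 CPM in any group mean, Epcam and Cdx2 had no reads, and their summed level was 0.0628 to 0.461 CPM in control, 0.233 to 0.712 with doxycycline, 0.448 to 0.483 with dTAG-13 and 0.223 to 0.351 with both. The epithelial markers thus did not bear out the labelled colon carcinoma cell type. Of 7 mesenchymal markers, 4 (Vim, Col3a1, Fn1 and Pdgfrb) exceeded 1 CPM. Col1a1, Col1a2 and Acta2 stayed below 1 CPM in every group mean, at 0.0421, 0.178 and 0.0319 CPM in control. The summed level was 3100 to 3160 CPM in control, 3110 to 3140 with doxycycline, 2380 to 2400 with dTAG-13 and 2290 to 2340 with both. The like sums of control and doxycycline covered opposite shifts. With doxycycline, mean Col3a1 went from 850 to 1100 CPM and Pdgfrb from 5.28 to 8.45. Vim went from 1500 to 1300 CPM and Fn1 from 774 to 718. The 8 leukocyte markers summed to 1.47 to 1.71 CPM in control, 1.86 to 1.94 with doxycycline, 1.96 to 2.7 with dTAG-13 and 2.59 to 3.16 with both. Of these, Cd68 averaged 0.942, 1.03, 1.26 and 1.79 CPM in the same order, Lyz2 averaged 0.643, 0.72, 1.1 and 0.962, and Cd3e was at 0. The part of these shifts in the results below was not tested.

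Promoter sequence was read for the members that rose or fell after dTAG-13. RefSeq windows of 250 bases before the transcription start (GRCm38.p6) were used for 9 of the 10 members, all but Csnk1a1, and were searched on both strands for 8 short motifs. Crbn and Rbx1 are shown because they were the members called higher after dTAG-13 in doxycycline-treated cells. Cul4b, Zfp91 and Glul are shown because they fell in both dTAG-13 comparisons. Ddb1 fell in both as well, but its window lies wholly inside the gene as GENCODE M21 draws it and is not shown. Bases inside the GENCODE gene were removed from the others, which leaves 250 bases for Crbn (chr6:106800088-106800337, minus strand), 230 for Rbx1 (chr15:81466066-81466295, plus strand), 250 for Cul4b (chrX:38576197-38576446, minus strand), 247 for Zfp91 (chr19:12796127-12796373, minus strand) and 250 for Glul (chr1:153899679-153899928, plus strand). The sequences run 5′ to 3′ on the gene's strand, and capitals mark motif matches.
Crbn: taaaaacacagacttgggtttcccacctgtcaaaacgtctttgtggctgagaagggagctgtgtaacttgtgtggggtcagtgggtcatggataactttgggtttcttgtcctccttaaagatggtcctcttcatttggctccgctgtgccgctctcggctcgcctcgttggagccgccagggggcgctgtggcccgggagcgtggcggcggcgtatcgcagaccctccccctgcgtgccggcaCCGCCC
Rbx1: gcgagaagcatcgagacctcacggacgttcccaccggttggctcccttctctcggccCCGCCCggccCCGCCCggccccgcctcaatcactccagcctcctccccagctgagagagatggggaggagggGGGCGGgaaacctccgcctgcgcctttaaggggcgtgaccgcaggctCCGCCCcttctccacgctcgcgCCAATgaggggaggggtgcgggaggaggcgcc
Cul4b: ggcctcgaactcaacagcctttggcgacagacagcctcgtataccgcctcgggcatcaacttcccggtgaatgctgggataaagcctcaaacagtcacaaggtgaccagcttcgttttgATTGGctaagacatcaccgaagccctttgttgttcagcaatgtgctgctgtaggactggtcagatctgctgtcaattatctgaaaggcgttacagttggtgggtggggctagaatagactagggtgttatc
Zfp91: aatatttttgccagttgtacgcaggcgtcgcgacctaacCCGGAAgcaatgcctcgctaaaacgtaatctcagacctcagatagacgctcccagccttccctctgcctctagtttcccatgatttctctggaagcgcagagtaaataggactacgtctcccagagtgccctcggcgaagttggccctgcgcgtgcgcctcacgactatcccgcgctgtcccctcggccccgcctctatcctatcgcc
Glul: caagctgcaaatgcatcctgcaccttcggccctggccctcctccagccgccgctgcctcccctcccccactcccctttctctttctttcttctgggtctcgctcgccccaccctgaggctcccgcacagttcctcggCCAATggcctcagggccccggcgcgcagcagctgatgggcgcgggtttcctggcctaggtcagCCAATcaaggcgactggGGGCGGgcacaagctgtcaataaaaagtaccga
The capitals mark 3 motifs, read on either strand. The GC box is spelled GGGCGG. The CCAAT box is spelled CCAAT. The ETS-type motif is spelled CCGGAA. The GC box was found once upstream of Crbn and 4 times upstream of Rbx1. Among the members that fell in both comparisons, Ddb1 had 2 GC boxes and Glul 1, and Cul4b and Zfp91 had none. Rbx1 and Cul4b had 1 CCAAT box each and Glul had 2, and Zfp91 had 1 ETS-type motif. Of the remaining windows, Cul4a had 2 GC boxes and Gspt1 had 1, each had 1 ETS-type motif, and Fkbp1a had no match. No member had the TATA box (TATAAA), the cAMP response element (TGACGTCA), the E-box (CACGTG), the AP-1 motif (TGACTCA) or the interferon-gamma activated site (TTCNNNGAA). Of 32851 promoter windows of the same length, 32.7% held a GC box, 33.8% a CCAAT box, 12% the ETS-type motif, 12.4% a TATA box, 1.5% the cAMP response element, 6.0% the E-box, 4.5% the AP-1 motif and 7.0% the interferon-gamma activated site. A match describes these letters only.

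The subunits of the cereblon ligase were present at very different mRNA levels. Per kilobase of the longest GENCODE M21 transcript, Ddb1 was the most abundant member in control cells, at 301.3 ± 1.93 CPM per kb (SD, n = 3), and Fkbp1a followed at 285.9 ± 5.71. Csnk1a1 stood at 103.6 ± 0.872 CPM per kb, Gspt1 at 95.97 ± 1.78 and Cul4a at 49.14 ± 0.961. The lower part of the order was Zfp91 at 31.74 ± 0.69, Rbx1 at 22.86 ± 0.968, Cul4b at 20.7 ± 0.52, Glul at 14.35 ± 0.87 and Crbn at 7.501 ± 0.144 CPM per kb. The substrate receptor Crbn was thus the least abundant of the 10 in control, and it held that place in the other 3 groups as well. Neighbours in the control order did not overlap between libraries, but the order of 2 pairs depended on the gene length used. With the merged exons of the RefSeq-linked transcripts as length, Fkbp1a (302.6 ± 6.05) and Ddb1 (301.3 ± 1.93) differed by less than their SD, and Rbx1 (36.42 ± 1.54) stood above Zfp91 (27.52 ± 0.599).

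**Figure D1:**
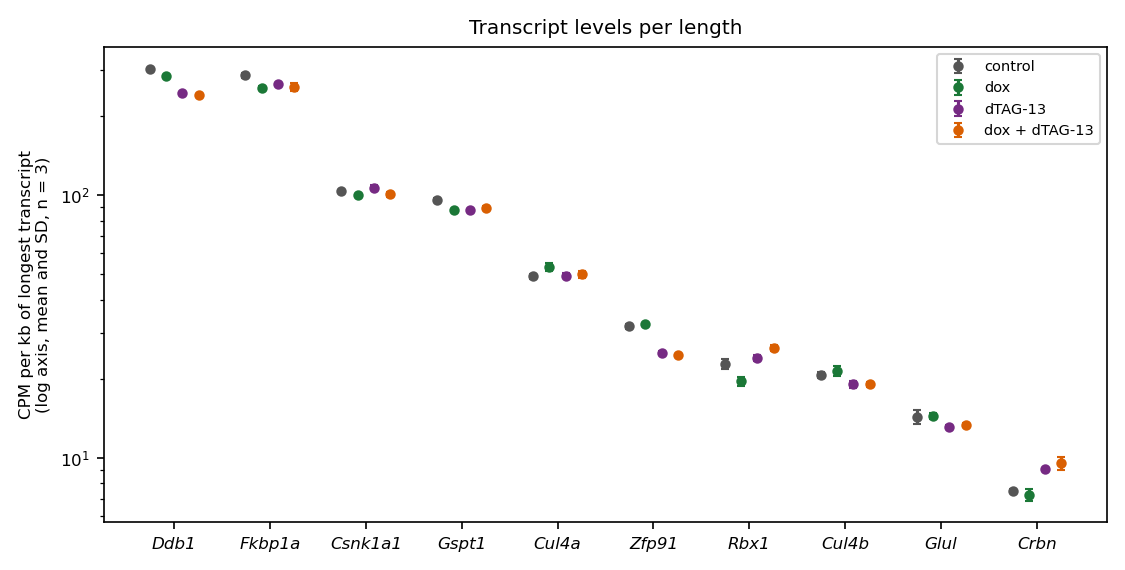
Level of each member in the 4 groups, as CPM per kb of the longest transcript on a log axis, with points for group means and bars for the SD over 3 libraries. Ddb1 and Fkbp1a lie highest and Crbn lowest in every group, from 7.501 CPM per kb in control to 9.542 with both agents.

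The ratio of adaptor to receptor mRNA differed between the groups. Ddb1 exceeded Crbn per kb by 40.2 ± 0.885 times in control and by 39.4 ± 2.25 times with doxycycline, against 27.1 ± 0.219 with dTAG-13 and 25.2 ± 1.64 with both agents (SD, n = 3). The libraries with dTAG-13 (23.7 to 27.3) did not overlap those without it (37.5 to 41.9). With the merged exon length, which scales all groups alike, the same ratios were 28.9, 28.4, 19.5 and 18.1. These ratios are not corrected for length and GC content between libraries. That correction shrank the log2 fold changes of dTAG-13 against control to -0.148 for Ddb1 and 0.083 for Crbn. For both agents against doxycycline it shrank them to -0.071 and 0.241. Cul4a exceeded its paralog Cul4b by 2.37 ± 0.0431 times per kb in control, 2.49 ± 0.121 with doxycycline, 2.59 ± 0.0324 with dTAG-13 and 2.62 ± 0.087 with both, so that Cul4a was the more abundant cullin scaffold in each group. Gspt1 exceeded its paralog Gspt2, which encodes eRF3b, by 19.2 ± 0.371, 17.2 ± 0.161, 18.1 ± 0.466 and 18.3 ± 1.39 times in the same order.

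Tests were made in 5 comparisons, 4 between pairs of groups and the interaction, which is the dTAG-13 difference with doxycycline minus the dTAG-13 difference without it. A gene was called at a Benjamini-Hochberg adjusted p under 0.05 in edgeR's quasi-likelihood test over 12910 genes. After dTAG-13 without doxycycline, Crbn rose and Ddb1, Cul4b, Fkbp1a, Gspt1, Zfp91 and Glul fell against control. These 7 of 10 members called compare with 62.1% of all genes tested, of which 30.0% were called higher and 32.1% lower. After dTAG-13 in doxycycline-treated cells, Crbn and Rbx1 rose and Ddb1, Cul4a, Cul4b, Zfp91 and Glul fell against doxycycline alone, again 7 of 10 against 64.1% of all genes (30.7% higher and 33.4% lower). Both shares of members are near the background. Doxycycline against control gave 5 called members, with Cul4a higher and Ddb1, Rbx1, Fkbp1a and Gspt1 lower, against 33.5% of all genes (14.8% higher, 18.7% lower). With dTAG-13 present, doxycycline gave 2 called members, Rbx1 higher and Csnk1a1 lower, against 20.4% of all genes (10.7% higher, 9.64% lower). In the interaction, 3 members were called, Rbx1, Fkbp1a and Gspt1, all with a higher dTAG-13 difference in the presence of doxycycline, against 22.9% of all genes (13.2% higher, 9.64% lower).

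The median log2 fold change of the 10 members was -0.11 for dTAG-13 against control, beside 0.019 over all genes, and -0.043 for both agents against doxycycline, beside 0.003. For doxycycline against control it was -0.049 beside -0.01, for both agents against dTAG-13 0.009 beside -0.001, and for the interaction 0.031 beside 0.005. The direction of the calls depended on the scaling in several comparisons. With scaling by library size only, in place of the trimmed mean of M values (TMM), dTAG-13 against control gave 4 members higher and 2 lower in place of 1 and 6, both agents against dTAG-13 gave 0 and 3 in place of 1 and 1, and the interaction gave 1 and 3 in place of 3 and 0. Over all genes that scaling gave 5256 higher and 3115 lower, 926 and 2132, and 818 and 2424 in the same order. That scaling moved the median of all genes in dTAG-13 against control from 0.019 to 0.11. Relative to that median, Crbn stood at 0.25, Ddb1 at -0.31, Zfp91 at -0.36, Gspt1 at -0.15 and Fkbp1a at -0.12. Correcting for the length and GC content of transcripts gave 0 members higher and 7 lower for dTAG-13 against control, and 1 and 2 for both agents against dTAG-13. Over all genes it gave 3055 higher and 3994 lower, and 1258 and 1105, in these comparisons. The comparisons of dTAG-13 with control and of doxycycline with control share the control libraries, so their values are set side by side and not combined.

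**Figure D2:**
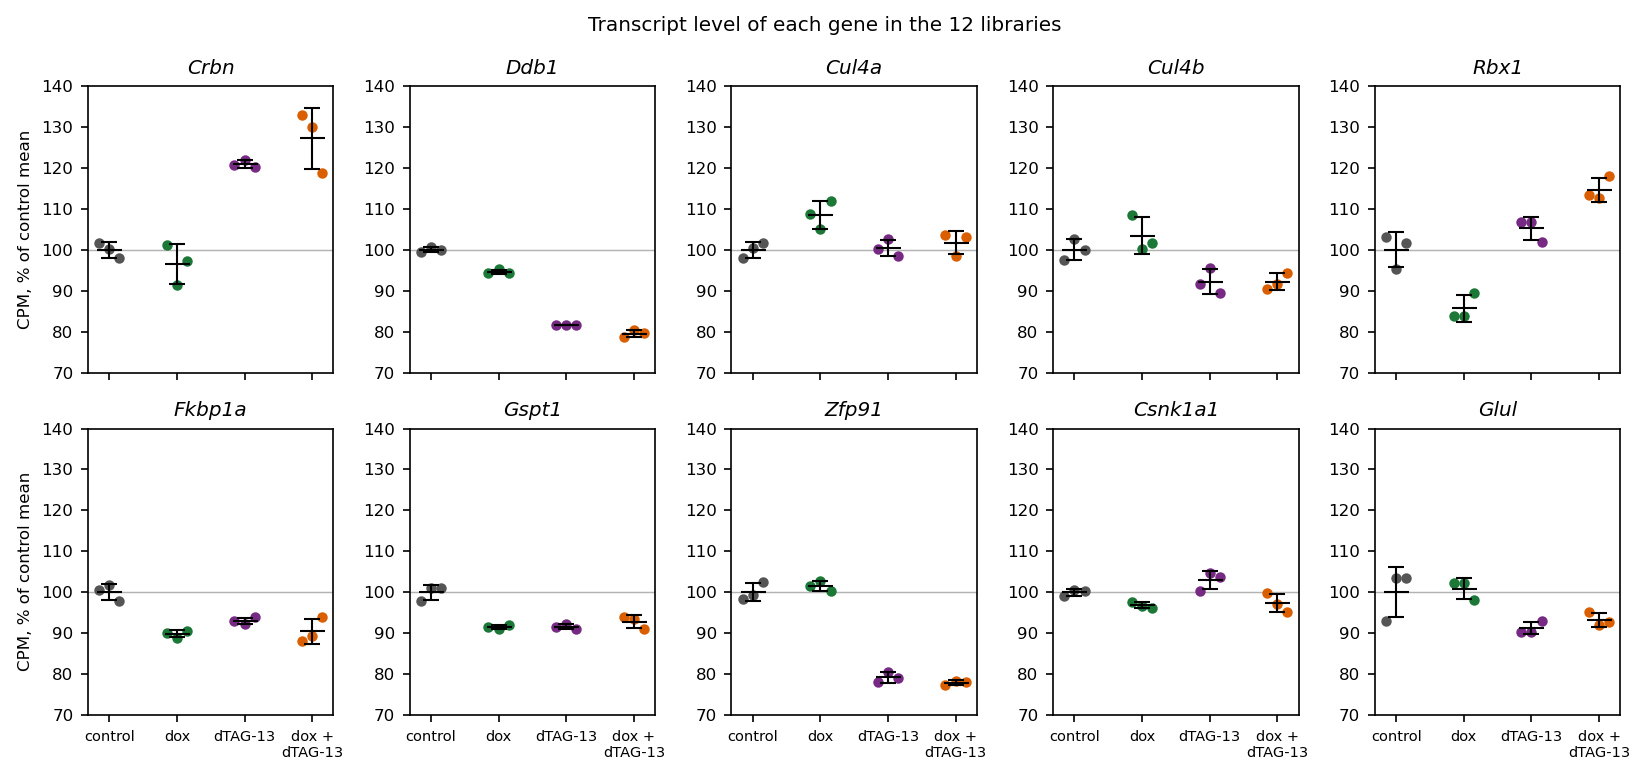
Each member's CPM in every library as a percentage of its control mean, with group means and SD over 3 libraries. Crbn is higher in all 6 libraries with dTAG-13 than in all 6 without it, Ddb1 and Zfp91 are lower, and Rbx1 is lowest with doxycycline alone.

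**Figure D3:**
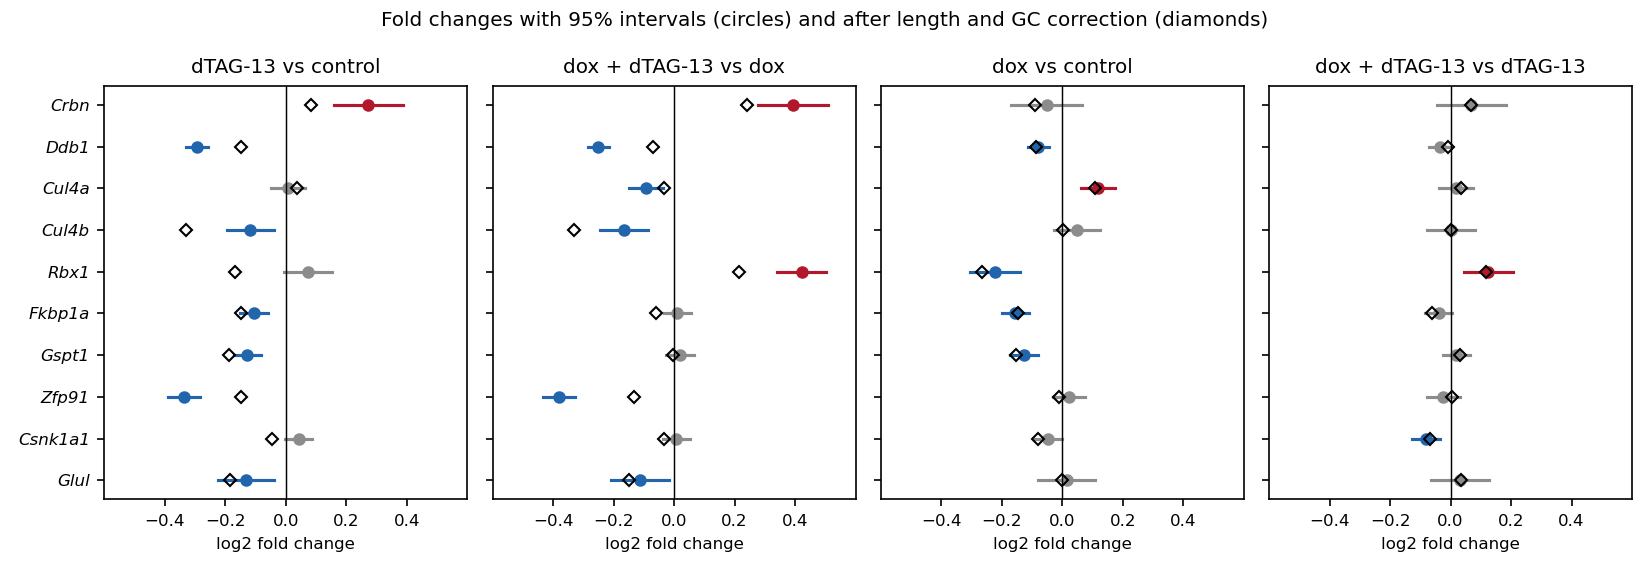
Log2 fold change of each member in the 4 comparisons between pairs of groups, as circles with the 95% confidence interval, red for called higher, blue for called lower and grey for not called. Diamonds give the value after correction for transcript length and GC content. Crbn moves from 0.27 to 0.083 under that correction for dTAG-13 against control, and from 0.39 to 0.24 for both agents against doxycycline.

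Crbn (Entrez 58799, GRCm38 chr6:106780201-106800077, minus strand), the substrate receptor, rose with dTAG-13 in both settings. Control libraries gave 22.12, 21.8 and 21.29 CPM, and dTAG-13 libraries gave 26.22, 26.51 and 26.11. The doxycycline libraries gave 21.98, 19.84 and 21.13 CPM, and the libraries with both agents gave 28.88, 28.25 and 25.82. All 6 libraries with dTAG-13 were above all 6 without it, and the lowest with both agents was the third. The log2 fold change was 0.27 (SE 0.0566, edgeR adjusted p 5.84e-05) against control, a rise of 20.8%, and 0.39 (SE 0.0577, edgeR adjusted p 1.33e-07) against doxycycline, a rise of 31.3%. The difference between these values, 0.12 (SE 0.0808), did not pass the test (edgeR adjusted p 0.308), and its 95% interval ran from -0.043 to 0.28. Doxycycline gave no called difference in Crbn, with -0.051 (95% interval -0.17 to 0.066) against control and 0.069 (-0.044 to 0.18) when dTAG-13 was present. Between 595 and 824 reads per library were counted for Crbn. Correction for transcript length and GC content ended the call against control (0.083, edgeR adjusted p 0.214) and left a called rise of 0.24 against doxycycline (edgeR adjusted p 0.000459). Crbn shares 144 exonic bases with Trnt1 on the opposite strand, and the strand setting of the counting is not given in the sources used here, so reads of the 2 genes may be mixed there.

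Ddb1 (Entrez 13194, chr19:10605327-10629819, plus strand), the adaptor, fell with dTAG-13. It stood at 1335, 1352 and 1343 CPM in control and at 1095, 1096 and 1096 with dTAG-13. With doxycycline it was 1268, 1279 and 1266 CPM, and with both agents 1055, 1078 and 1071. The 4 groups did not overlap, and control was highest. The log2 fold change was -0.29 (SE 0.0175, edgeR adjusted p 3.96e-18) for dTAG-13 against control, a percent change of -18.5, and -0.25 (SE 0.0176, edgeR adjusted p 5.94e-16) for both agents against doxycycline, a percent change of -15.9. Doxycycline alone gave -0.08 against control (SE 0.0175, edgeR adjusted p 0.000361), a call lost with scaling by library size only (-0.044, edgeR adjusted p 0.0558). The dTAG-13 differences with and without doxycycline were not called as different (0.044, 95% interval -0.006 to 0.094). Correction for length and GC content moved the dTAG-13 values to -0.15 and -0.071, both still called, and their difference was then called at 0.078 (edgeR adjusted p 0.0127). Ddb1 shares 328 exonic bases with Tkfc on the opposite strand.

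Before correction for length and GC content, the cullin scaffolds differed less after dTAG-13 than Crbn, Ddb1 and Zfp91 did. Cul4b (Entrez 72584, chrX:38533274-38576196, minus strand) gave 67.68, 71.17 and 69.45 CPM in control and 63.56, 66.29 and 62.13 with dTAG-13. It gave 75.4, 69.55 and 70.52 CPM with doxycycline and 62.81, 63.58 and 65.56 with both agents. Every library with dTAG-13 was below every library without it. Its log2 fold change was -0.12 (SE 0.0382, edgeR adjusted p 0.00752) against control and -0.17 (SE 0.0387, edgeR adjusted p 0.000268) against doxycycline, and the correction for length and GC content moved both to -0.33. With scaling by library size only the first of these was not called (-0.026). Cul4a (Entrez 99375, chr8:13105621-13147940, plus strand) gave 179.3, 184.1 and 186.2 CPM in control, 199.0, 192.5 and 205.1 with doxycycline, 183.4, 188.0 and 180.6 with dTAG-13, and 189.8, 180.4 and 188.7 with both. The 3 doxycycline libraries were the highest. Cul4a rose with doxycycline by 0.12 (SE 0.0273, edgeR adjusted p 0.000675) and was lower by -0.094 with both agents than with doxycycline (edgeR adjusted p 0.00299), the latter not called after correction for length and GC content (-0.035, edgeR adjusted p 0.278). For dTAG-13 against control Cul4a showed 0.007, with a 95% interval of -0.049 to 0.062, and with library size only it was called at 0.098 (edgeR adjusted p 0.00192). Its interaction of -0.1 missed the threshold (edgeR adjusted p 0.0567) and was called without control replicate 3 (-0.11), without doxycycline replicate 2 (-0.13), without dTAG-13 replicate 1 (-0.11) and with library size only (-0.17).

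Rbx1 (Entrez 56438, chr15:81466296-81476369, plus strand), the RING subunit, was the member with the largest called interaction. It stood at 62.91, 58.06 and 62.03 CPM in control and at 51.08, 51.14 and 54.61 with doxycycline. With dTAG-13 it was 65.2, 65.19 and 62.16 CPM, and with both agents 69.09, 68.72 and 71.97. The doxycycline libraries were lowest and those with both agents highest, each apart from the other groups, while control and dTAG-13 overlapped. Rbx1 was lower with doxycycline than in control, by a log2 difference of -0.22 (SE 0.0404, edgeR adjusted p 2.58e-05) and a percent change of -14.3. Adding dTAG-13 to doxycycline gave 0.42 (SE 0.0404, edgeR adjusted p 4.81e-12), a rise of 33.9%, whereas dTAG-13 without doxycycline gave 0.074 (95% interval -0.006 to 0.15, edgeR adjusted p 0.102). The test of that difference, the interaction, gave 0.35 (SE 0.0565, edgeR adjusted p 1.14e-05). The interaction of Rbx1 was called in each of its 19 alternatives, with values from 0.28 to 0.39. Under the correction for length and GC content the rise after dTAG-13 in doxycycline-treated cells was 0.21 (edgeR adjusted p 1.71e-05), and dTAG-13 against control was called lower at -0.17 (edgeR adjusted p 0.000325). With library size only that comparison was called higher at 0.16 (edgeR adjusted p 0.000342), so its direction depended on the setting. Both agents against dTAG-13 gave 0.12 (95% interval 0.045 to 0.2, edgeR adjusted p 0.0199), a call lost without doxycycline plus dTAG-13 replicate 3 (0.1, edgeR adjusted p 0.109), without dTAG-13 replicate 3 (0.1, edgeR adjusted p 0.111) and with library size only (0.09, edgeR adjusted p 0.0959).

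Fkbp1a (Entrez 14225, chr2:151542483-151561692, plus strand) encodes FKBP12, the protein whose mutated form serves as the tag in dTAG systems. The rows of the count table are Entrez gene IDs, and none was read as specific to the tag. Control libraries gave 577.9, 584.8 and 562.3 CPM, doxycycline libraries 517.3, 511.2 and 521.1, dTAG-13 libraries 534.0, 530.4 and 539.8, and libraries with both agents 507.0, 513.8 and 539.7. Control was above all other groups, and the third library with both agents was the highest of its group. Fkbp1a was lower with doxycycline by a log2 difference of -0.15 (95% interval -0.2 to -0.11, edgeR adjusted p 4.75e-07) and with dTAG-13 by -0.1 (95% interval -0.15 to -0.06, edgeR adjusted p 8.28e-05), the latter a call lost with library size only (-0.013). Both agents against doxycycline gave 0.011 (95% interval -0.035 to 0.056, edgeR adjusted p 0.699), and after correction for length and GC content a called -0.061 (edgeR adjusted p 0.0167). The interaction was 0.12 (95% interval 0.052 to 0.18, edgeR adjusted p 0.00626), a call lost with library size only (0.045, edgeR adjusted p 0.316). Both agents against dTAG-13 gave -0.039 (edgeR adjusted p 0.229), which was called without doxycycline plus dTAG-13 replicate 3 (-0.066, edgeR adjusted p 0.0435), after correction for length and GC content (-0.06) and with library size only (-0.074).

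Among the 4 substrates, Zfp91 (Entrez 109910, chr19:12763660-12796126, minus strand), a zinc-finger protein of the NF-kappa-B pathway, fell in both dTAG-13 comparisons. It stood at 172.5, 174.3 and 179.8 CPM in control and at 136.9, 141.4 and 138.6 with dTAG-13. With doxycycline it was 178.0, 180.3 and 176.0 CPM, and with both agents 135.6, 137.6 and 136.9. The 6 libraries with dTAG-13 lay far below the other 6, and doxycycline made no called difference (0.021 without dTAG-13, -0.024 with it). The log2 fold change was -0.34 (SE 0.0262, edgeR adjusted p 1.56e-14) against control and -0.38 (SE 0.0265, edgeR adjusted p 4.52e-16) against doxycycline, percent changes of -20.8 and -23.2. After correction for length and GC content these were -0.15 and -0.13, both called, beside -0.19 and -0.004 for Gspt1 and -0.18 and -0.15 for Glul. Zfp91 shares 847 exonic bases with Cntf on the same strand, so reads there cannot be assigned to one of the 2 genes.

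Gspt1 (Entrez 14852, chr16:11219292-11254325, minus strand), the termination factor, gave 349.0, 360.7 and 360.2 CPM in control, 326.5, 324.8 and 327.8 with doxycycline, 325.9, 329.1 and 324.6 with dTAG-13, and 334.8, 333.6 and 324.6 with both. Control was above the other groups, which overlapped each other. Gspt1 was lower by the same -0.13 with doxycycline (edgeR adjusted p 1.62e-05) and with dTAG-13 (edgeR adjusted p 4.99e-06), the latter not called with library size only (-0.035). Adding dTAG-13 to doxycycline gave 0.02 (95% interval -0.026 to 0.066), and the interaction was 0.15 (SE 0.0319, edgeR adjusted p 0.000638), not called with library size only (0.077, edgeR adjusted p 0.0798). Gspt1 shares 239 exonic bases with the antisense gene 2610020C07Rik.

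Csnk1a1 (Entrez 93687, chromosome 18), which encodes the CK1-alpha kinase of the beta-catenin destruction complex, gave 418.8, 425.2 and 424.6 CPM in control, 412.6, 408.9 and 407.0 with doxycycline, 424.5, 442.6 and 438.7 with dTAG-13, and 421.7, 410.7 and 402.6 with both. The dTAG-13 libraries were highest, with their lowest value inside the control range. Both agents against dTAG-13 was the comparison called (-0.081, SE 0.0224, edgeR adjusted p 0.00729), and that call was lost without doxycycline plus dTAG-13 replicate 3 (-0.064, edgeR adjusted p 0.0674) and without dTAG-13 replicate 2 (-0.064, edgeR adjusted p 0.0765). The dTAG-13 difference was 0.042 (95% interval -0.003 to 0.087) against control and 0.007 (-0.038 to 0.053) against doxycycline. The first of these was called at 0.049 with the filter of 1 CPM in 3 libraries (edgeR adjusted p 0.049). With library size only it was called at 0.13 and the interaction at -0.1 (edgeR adjusted p 0.0146). After correction for length and GC content, doxycycline against control was called at -0.08 (edgeR adjusted p 0.00211).

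Glul (Entrez 14645, chr1:153899944-153909723, plus strand), glutamine synthetase, gave 37.28, 41.51 and 41.45 CPM in control, 41.02, 41.01 and 39.28 with doxycycline, 36.21, 36.2 and 37.26 with dTAG-13, and 38.16, 36.86 and 37.18 with both. The first control library stood closer to the dTAG-13 libraries than to the other controls. Glul was lower with dTAG-13 by -0.13 (SE 0.0464, edgeR adjusted p 0.0132) against control and by -0.11 (SE 0.0472, edgeR adjusted p 0.0333) against doxycycline. The call against control was lost without control replicate 2 (-0.11, edgeR adjusted p 0.0626) and with library size only (-0.04). The call against doxycycline was lost with RLE size factors (-0.1), library size only (-0.093), DESeq2 (-0.11) and no filter on low counts (-0.11). It was also lost without doxycycline replicate 1 (-0.12) or 2 (-0.12), and without doxycycline plus dTAG-13 replicate 2 (-0.1) or 3 (-0.11). Glul shares 116 exonic bases with Teddm2 on the opposite strand and 93 with Mir8114.

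The dTAG-13 differences varied with transcript length across all genes, and the members' values are set beside that gradient. When the tested genes with a known length were divided into 8 classes by longest transcript, the median log2 fold change for dTAG-13 against control ran from 0.21 in the shortest class to -0.28 in the longest. For both agents against doxycycline it ran from 0.34 to -0.38. Crbn, with a longest transcript of 2898 nt, belonged to a class with medians of 0.015 and -0.015, so its 0.27 and 0.39 exceeded the class median in both, at the 79.1 and 89.6 percentile. Rbx1 (2669 nt) equalled its class for dTAG-13 against control (0.074 beside 0.071) and exceeded it in doxycycline-treated cells (0.42 beside 0.066). These classes depend on the gene length used. By merged exons, Crbn (2084 nt) and Rbx1 (1675 nt) would both fall in the class of 1579 to 2220 nt. Its medians were 0.114 against control and 0.155 against doxycycline. Rbx1 would then lie below its class against control, while Crbn would exceed it in both comparisons. Ddb1 (4459 nt) stood at -0.29 and -0.25 beside class medians of -0.07 and -0.12, and Zfp91 (5531 nt) at -0.34 and -0.38 beside -0.13 and -0.2. In their classes Ddb1 was at the 24.1 and 33.9 percentile and Zfp91 at the 25.4 and 27.0 percentile. Fkbp1a (2011 nt) lay below its class in both comparisons, at -0.1 beside 0.11 and 0.011 beside 0.15. The correction for length and GC content, which changes both together, shrank the values of Crbn, Ddb1 and Zfp91 and enlarged those of Cul4b and Glul in both dTAG-13 comparisons. The part of transcript length alone was not tested.

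**Figure D4:**
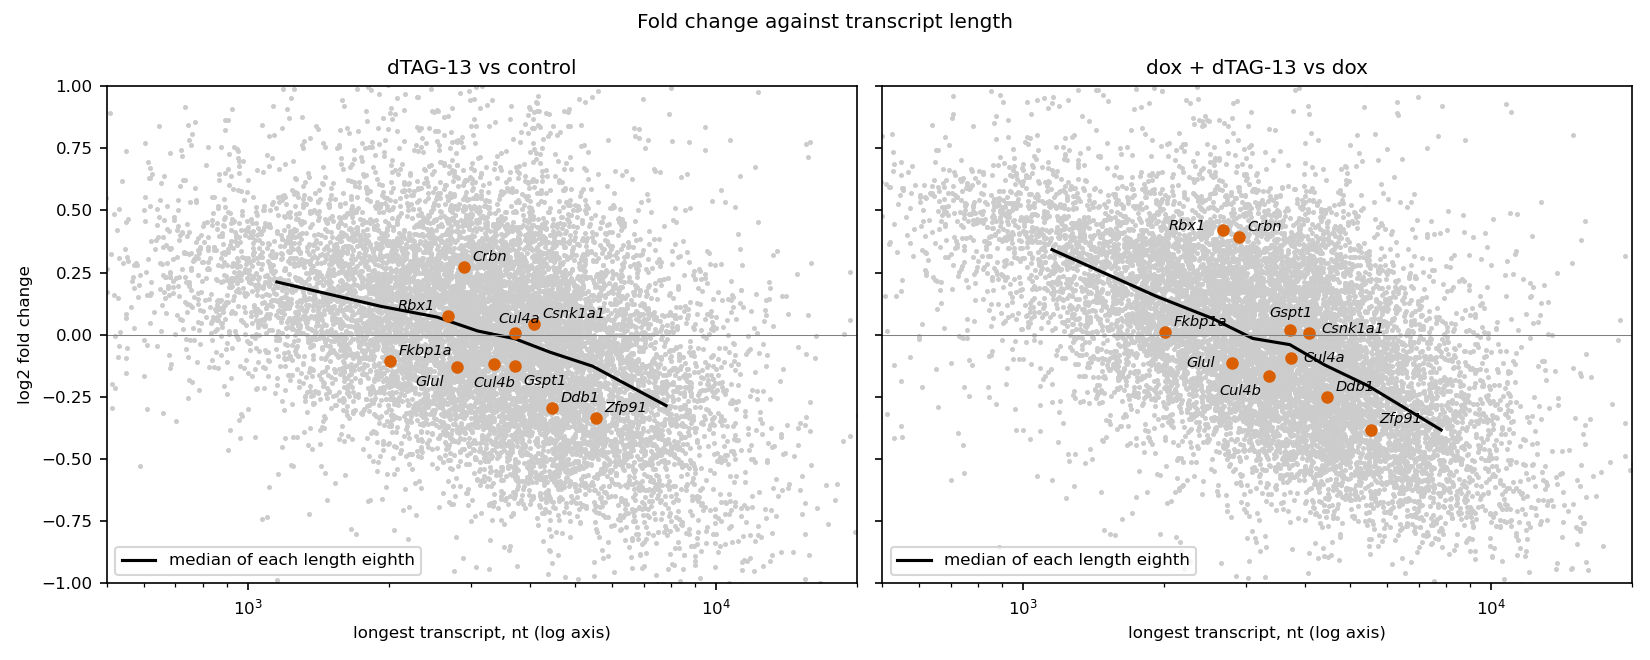
Log2 fold change of each tested gene against its longest transcript in nt (log axis) for the comparisons of dTAG-13 with control (left) and of both agents with doxycycline (right), with members in orange and the median of each length eighth as a line. Points outside the axes are not drawn. Crbn lies above the line in both panels, Rbx1 above it on the right (0.42), and Ddb1 and Zfp91 below it.

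Other genes of the pathway were counted in 6 lists. Regulators of cullin-RING ligases comprise the NEDD8 conjugation enzymes, the COP9 signalosome that removes NEDD8, and E2 enzymes. The list also holds Nedd8, Senp8, Cand1, Dda1 and Rnf7. Of 23 regulators tested, 15 were higher and 4 lower for dTAG-13 against control (median log2 fold change 0.14, all genes 0.019), where 30.0% of all genes were called higher and 32.1% lower. For both agents against doxycycline 16 were higher and 3 lower (median 0.2, all genes 0.003), where 30.7% and 33.4% of all genes were called. Their median transcript length was 2561 nt, beside 3400 nt for all tested genes with a length. After correction for length and GC content the counts were 10 and 6 (median 0.0) and 13 and 4 (median 0.12). With library size only the first was 17 and 2. Over all 12910 genes, the correction gave 3055 higher and 3994 lower against control, and 3312 and 3571 against doxycycline. Library size only gave 5256 and 3115 against control, and 4218 and 4076 against doxycycline. These counts of all genes also belong beside the corrected and rescaled counts of the lists below. Doxycycline against control gave 2 higher and 9 lower, where 14.8% of all genes were called higher and 18.7% lower. With library size only the counts were 3 and 7, beside 2546 and 1607 of all genes. The interaction gave 7 higher and 0 lower, where 13.2% of all genes were called higher and 9.64% lower. These counts became 3 and 4 with library size only, beside 818 and 2424 of all genes.

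The largest called differences among the regulators included both subunits of the NEDD8-activating enzyme. Nae1 rose from 82.8 ± 1.95 CPM in control to 111 ± 0.884 with dTAG-13 (log2 fold change 0.43, SE 0.0315, edgeR adjusted p 2.67e-15), and Uba3 rose as well (0.39, SE 0.0249). Senp8, the protease that processes NEDD8, rose from 14.1 ± 0.158 to 18.8 ± 1.11 CPM (0.41, SE 0.071). In doxycycline-treated cells Rnf7, the paralog of Rbx1, rose from 67.5 ± 2.3 to 102 ± 3.93 CPM after dTAG-13 (0.6, SE 0.0354, edgeR adjusted p 3.49e-18). The COP9 signalosome subunits Cops3 (0.4, SE 0.0288) and Cops5 (0.38, SE 0.0291), the latter its catalytic subunit, rose as well. After correction for length and GC content Rnf7 stood at 0.22, Cops3 at 0.22 and Cops5 at 0.21 in that comparison, and Nae1 at 0.23, Uba3 at 0.1 and Senp8 at 0.2 against control.

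Substrate receptors that use Ddb1 in place of cereblon were mixed. Of 21 tested, 5 were higher and 9 lower for dTAG-13 against control (median 0.015), and 3 higher and 11 lower for both agents against doxycycline (median -0.1). Over all genes, 30.0% were called higher and 32.1% lower in the first comparison, and 30.7% and 33.4% in the second. The median transcript length of these receptors was 5203 nt. The correction for length and GC content gave 7 higher and 6 lower in both comparisons, and library size only gave 9 and 7 in the first. Brwd3 fell from 52.4 ± 0.885 CPM in control to 27.9 ± 0.773 with dTAG-13 (-0.91, SE 0.0466, edgeR adjusted p 3.05e-20) and Dcaf7 from 259 ± 1.83 to 167 ± 1.45 (-0.63, SE 0.024). These genes also fell in doxycycline-treated cells, with log2 fold changes of -0.7 and -0.62. After correction Brwd3 stood at -0.77 and -0.46, and Dcaf7 at -0.4 and -0.33. Ambra1 was lower against control (-0.47, or -0.22 after correction) and Wdtc1 against doxycycline (-0.6, or -0.33 after correction).

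Among the 6 other cullins, 2 were higher and 3 lower against control, or 2 and 2 with library size only, and 2 were higher and 4 lower against doxycycline, or 2 and 3 after correction for length and GC content. The shares of all genes were 30.0% higher and 32.1% lower against control, and 30.7% and 33.4% against doxycycline. Cul7 fell in both, from 191 ± 4.54 to 116 ± 4.46 CPM (-0.71, SE 0.0302) and from 173 ± 3.75 to 110 ± 4.35 CPM (-0.66, SE 0.0309). Cul2, the scaffold of the VHL ligase, was higher against control (0.32, SE 0.0307), and Cul3 was lower against doxycycline (-0.31, SE 0.0288). Cul9 was called lower in both (-0.29 and -0.47), and its sign turned after correction for length and GC content (0.19 and 0.11). The same correction moved Cul7 to -0.37 and -0.24, Cul2 to 0.14 against control and Cul3 to -0.37 against doxycycline.

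Relatives of FKBP12 did not move in 1 direction. Of 12 tested of 14 listed, 5 were higher and 4 lower for dTAG-13 against control (6 and 3 with library size only) and 6 were higher and 4 lower for both agents against doxycycline. Beside these counts, 30.0% of all genes were called higher and 32.1% lower against control, and 30.7% and 33.4% against doxycycline. Fkbp5, a co-chaperone of steroid receptors, fell from 80.3 ± 1.1 to 51.4 ± 0.86 CPM (-0.64, SE 0.037) and from 67.5 ± 1.27 to 45.7 ± 1.68 CPM (-0.56, SE 0.0389). The largest called rises included Fkbp11 at 0.45 (SE 0.0515) and 0.63 (SE 0.0528). Fkbp14 was at 0.64 (SE 0.0818) against control and Fkbp7 at 0.47 (SE 0.0747) against doxycycline. After correction Fkbp5 stood at -0.57 and -0.46, Fkbp11 at 0.44 and 0.61 and Fkbp14 at 0.43, while Fkbp7 turned to -0.12.

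Of 16 other reported cereblon substrates, 11 were tested, and Ikzf1, Ikzf3, Ikzf4, Sall4 and Zbtb16 did not pass the filter on low counts. Against control 4 were higher and 4 lower, where 30.0% of all genes were called higher and 32.1% lower. With library size only the counts were 6 and 4. Against doxycycline 1 was higher and 6 lower (median -0.18, all genes 0.003), where 30.7% and 33.4% of all genes were called. These counts were 2 and 6 with library size only and 2 and 3 after correction for length and GC content. The zinc-finger gene Wiz fell from 60.0 ± 1.79 to 35.1 ± 1.09 CPM (-0.77, SE 0.0511) and from 58.9 ± 1.84 to 38.4 ± 4.05 CPM (-0.63, SE 0.0518). Zfp692 rose against control (0.63, SE 0.0864) and Zfp827 fell (-0.4, SE 0.0616). Meis2 (-0.45, SE 0.0459) and Ikzf2 (-0.41, SE 0.106) fell against doxycycline. After correction Wiz stood at -0.4 and -0.18, Zfp692 at 0.62 and Zfp827 at -0.086 against control, and Meis2 at -0.32 and Ikzf2 at -0.18 against doxycycline.

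Of 16 paralogs and partners of the 4 substrates, 3 were higher and 11 lower against control (median -0.16), where 30.0% of all genes were called higher and 32.1% lower. These counts were 4 and 8 with library size only and 3 and 8 after correction for length and GC content. Against doxycycline 3 were higher and 10 lower (median -0.2), where 30.7% and 33.4% of all genes were called, and after correction 4 and 7. Apc, the scaffold of the beta-catenin destruction complex in which CK1-alpha works, fell from 110 ± 0.117 to 65.9 ± 1.08 CPM (-0.74, SE 0.0355, edgeR adjusted p 3.7e-21) and from 109 ± 3.15 to 64.8 ± 3.84 CPM (-0.75, SE 0.0363). Map3k14, which encodes the NF-kappa-B-inducing kinase that ZFP91 is known to stabilise, fell against control (-0.37, SE 0.0508), as did the glutamine transporter Slc38a2 (-0.36, SE 0.0233). The CK1 paralogs Csnk1e (-0.48, SE 0.0285) and Csnk1g1 (-0.41, SE 0.0467) fell against doxycycline. After correction Apc stood at -0.44 and -0.38, Map3k14 at -0.14 and Slc38a2 at -0.24 against control, and Csnk1e at -0.36 and Csnk1g1 at -0.12 against doxycycline.

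**Figure D5:**
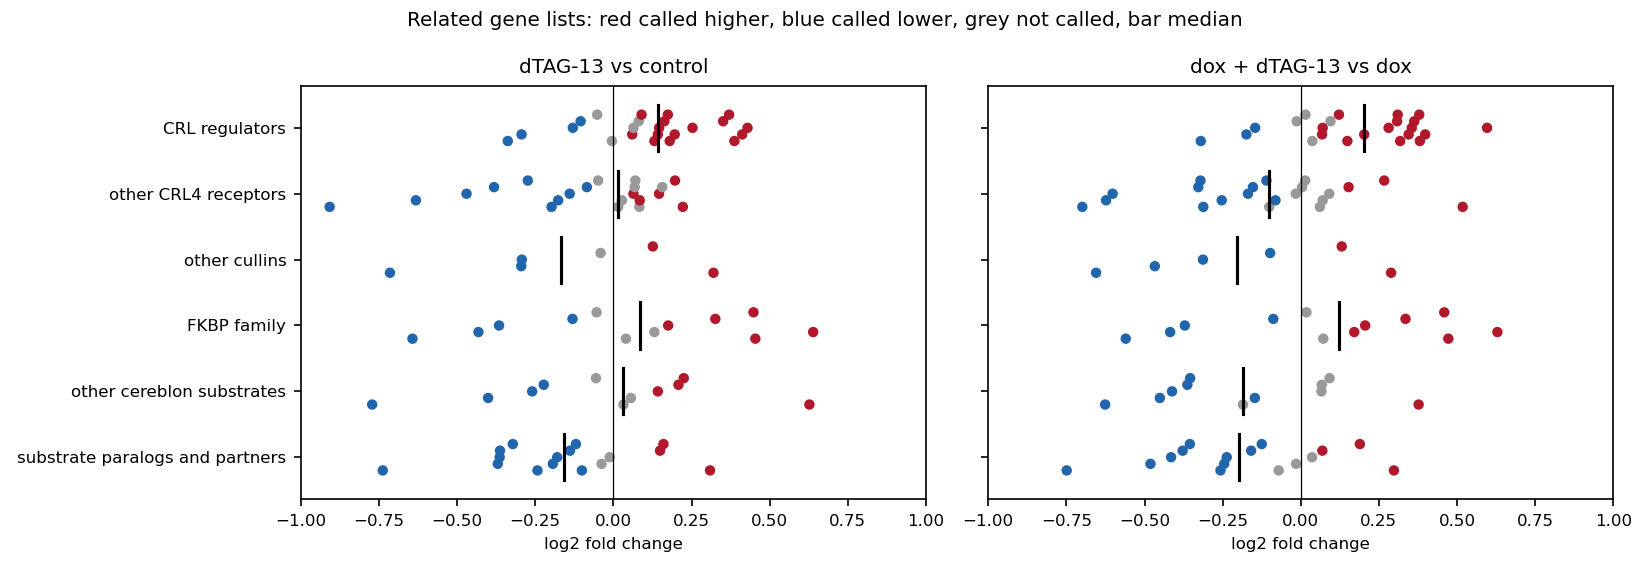
Log2 fold changes of the genes in the 6 related lists for the 2 dTAG-13 comparisons, red for called higher, blue for called lower and grey for not called, with a bar at each list's median. Against control, 15 of 23 regulators of cullin-RING ligases were called higher (10 after correction for length and GC content), and 11 of 16 paralogs and partners of the substrates lower (8 after correction). Of all genes tested, 30.0% were called higher and 32.1% lower in that comparison before correction. After correction, 3055 of 12910 genes were called higher and 3994 lower.

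The genes whose pattern over the 12 libraries was closest to that of Crbn were found by the root mean square difference of centred log2 CPM among the 10081 genes that averaged 5 CPM or more. The 5 closest were Gm15501 (0.0451), Ndufs8 (0.0467), Gm10698 (0.0496), Apip (0.0497) and Wdr45b (0.0497), beside a median of 0.2161 over all genes compared. Ndufs8, a subunit of respiratory complex I, averaged 106, 102, 126 and 141 CPM in control, doxycycline, dTAG-13 and both agents. Apip, an enzyme of methionine salvage, averaged 22.0, 21.0, 25.8 and 29.4 CPM in the same order, close to the 21.74, 20.98, 26.28 and 27.65 CPM of Crbn. Wdr45b averaged 153, 151, 190.0 and 201 CPM. The 5 were picked for this likeness, so the choice itself fixed their pattern. Each averaged higher with dTAG-13 than without it, and Gm10698 differed little between dTAG-13 (75.7 CPM) and both agents (76.3). The likeness describes these 12 libraries of 4 cultures.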

How the data were processed

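The raw counts deposited by the authors form 1 table (27179 Entrez IDs by 12 libraries). Per the file headers Subread aligned the reads, and the submitters' processing notes name bcl2fastq 2.17, featureCounts and mm10. The annotation, strand setting and handling of multiply mapped reads were not given in the sources used here. Symbols came from RefSeq (GRCm38.p6, 25275 IDs) and GENCODE M21 (17 IDs), and 1887 IDs had none.

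Group differences were fitted with edgeR 4.0.16 under R 4.3.3 (filterByExpr by group, 12910 genes, TMM factors 0.9647 to 1.0349, 1 mean per group over all 12 libraries, robust quasi-likelihood F test, two-sided, Benjamini-Hochberg over all tested genes, called under 0.05). SE were derived from the fold change and F statistic. CPM is edgeR's normalised read count on the TMM-scaled library size, given as mean ± SD over 3 libraries. Alternatives were RLE size factors, library size only, DESeq2 1.42.0, no filter on low counts, 1 CPM in 3 libraries, a fit to the compared groups only, a replicate block, a length and GC correction (splines with 5 degrees of freedom, 91% of tested genes with values) and leaving out each library. The code was tested on simulated data. Tables used Python 3.11.15, pandas 2.3.3 and numpy 2.4.6, and figures matplotlib 3.10.9.

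The members and lists were chosen with earlier results of these data known. All 10 members are named. Each list names at most the 3 called genes with the largest absolute log2 fold change in each of the 2 dTAG-13 comparisons, and the likeness to Crbn names 5 genes.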

Additional observations from a re-analysis of the deposited data

Results flagged for a closer look

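In 3 members the dTAG-13 difference with doxycycline differed from that without it by the test of the interaction. The difference between the log2 fold changes was 0.348 for Rbx1 (edgeR adjusted p 1.14e-05), 0.147 for Gspt1 (edgeR adjusted p 0.000638) and 0.115 for Fkbp1a (edgeR adjusted p 0.00626), beside 22.9% of all genes called in that test. With library size only, Rbx1 was still called and the other two were not.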

How the results depend on the processing

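The 50 log2 fold changes of the members (10 genes in 5 comparisons) gave 990 values under the alternatives, of which 913 kept their direction and side of the threshold, 23 lost the call, 16 gained one and 38 changed sign, and 16 of the 50 results did not change under any. No difference called in the main fit changed sign. Rbx1 for dTAG-13 against control and Fkbp1a for both agents against doxycycline were called after their sign turned under length and GC correction. Correction for length and GC content turned doxycycline against control for Zfp91 (-0.012) and Glul (-0.002), dTAG-13 against control for Rbx1 (-0.168) and Csnk1a1 (-0.046), both agents against doxycycline for Fkbp1a (-0.061), Gspt1 (-0.004) and Csnk1a1 (-0.033), both agents against dTAG-13 for Zfp91 (0.005), and the interaction for Cul4b (0.001), Zfp91 (0.017) and Csnk1a1 (0.013). Library size only turned both agents against dTAG-13 for Cul4a (-0.017), Cul4b (-0.034), Gspt1 (-0.015) and Glul (-0.003), and the interaction for Ddb1 (-0.027) and Glul (-0.053). Leaving out 1 library gave both signs for doxycycline against control of Glul (-0.04 to 0.052), dTAG-13 against control of Cul4a (-0.016 to 0.013), both agents against doxycycline of Fkbp1a (-0.019 to 0.028) and Csnk1a1 (-0.011 to 0.022), both agents against dTAG-13 of Cul4b (-0.018 to 0.031) and the interaction of Glul (-0.016 to 0.074). The cause was not tested.

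Leaving out 1 library gave 5 called members for doxycycline against control, 6 to 7 for dTAG-13 against control and for both agents against doxycycline, 3 to 4 for the interaction and 1 to 2 for both agents against dTAG-13, where the 1 resulted from leaving out doxycycline plus dTAG-13 replicate 3, or from leaving out replicate 2 or 3 of dTAG-13. Over all genes, library size only gave 2546 higher and 1607 lower calls for doxycycline against control in place of 1917 and 2414, 5256 and 3115 for dTAG-13 against control in place of 3877 and 4144, 926 and 2132 for both agents against dTAG-13 in place of 1386 and 1244, and 818 and 2424 for the interaction in place of 1705 and 1245. Length and GC correction gave 1554 and 3037 for doxycycline against control and 2054 and 895 for the interaction. With the replicate number as a block the called members were 5, 7, 7, 2 and 3 (doxycycline against control, dTAG-13 against control, both agents against doxycycline, both agents against dTAG-13, interaction), and the called genes 4172, 7938, 8205, 2490 and 2810. Deviations of same-numbered libraries from their group means correlated at -0.0173 to 0.0814, so the numbers are not taken to pair the libraries.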
